A study of Mus musculus with 10 samples.

Results

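The tumor necrosis factor (TNF) superfamily comprised 44 of the 55453 gene symbols in the count table of mouse aortae. Members were taken by symbol alone, as every *Tnfsf* and *Tnfrsf* gene with a number and *Tnf*, *Lta*, *Ltb*, *Ltbr*, *Fas*, *Fasl*, *Cd40*, *Cd40lg*, *Cd27*, *Cd70*, *Eda* and *Edar*. They were 18 ligands, 6 receptors with a death domain, 3 decoy receptors, 16 other receptors and *Tnfsf13os*, a noncoding RNA of the *Tnfsf13* locus. RNA was sequenced from whole aortae of 10 male C57BL/6 mice, 5 young at 14.5 weeks and 5 old at 92.5 weeks, with 1 library per mouse. Both groups were of 1 strain and 1 sex, were killed at the same time, and had the fat around the aorta removed. Old and young mice were bought at different ages, so that age and anything else that differed between the purchases cannot be told apart.

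TNF ligands are mostly trimeric membrane proteins that can be shed, and they bind receptors with cysteine-rich repeats. Receptors with a death domain can recruit adaptors of apoptosis, most others recruit TRAF proteins and switch on NF-κB, and decoys bind a ligand without passing a signal on. In arteries, the family is known for the activation of endothelium, the recruitment of leukocytes and, through osteoprotegerin and RANKL, the regulation of calcification.

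The libraries held 19640401 to 22886153 counts on genes. Mitochondrial transcripts took 4.50% to 6.51% of the counts in 9 libraries and 11.0% in old replicate 2. Smooth muscle markers were abundant in every library, with a summed normalized count of 733917 to 941453 over 6 genes, as the label aorta requires. Marker lists of other cells differed between the ages. All 8 macrophage markers had a positive log2 fold change and 4 were called higher in old aortae (*Cd68*, *Adgre1*, *C1qb* and *C1qa*). All 6 endothelial markers had a negative log2 fold change and 1 was called lower (*Tek*). Of 8 T cell markers, 3 could be tested and 2 were called higher in old aortae (*Cd4* and *Cd3g*). In bulk tissue, fewer cells of a type and less RNA per cell cannot be told apart.

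The ages were set against each other by the quasi-likelihood test of edgeR on raw counts of all genes, with a call where the Benjamini-Hochberg adjusted p was under 0.05. Of the 44 members, 24 had enough counts to be tested. The test called 4 members higher in old aortae, namely *Tnfrsf11b*, *Tnfrsf21*, *Tnfrsf1b* and *Tnfsf13b*, and called 0 lower. These are 16.7% of the tested members, whereas 6.48% of all 14614 tested genes were called higher and 4.99% lower. The members called were 1 decoy receptor, 1 receptor with a death domain, 1 receptor without one and 1 ligand. An unadjusted p below 0.05 was reached by 5 of the 24 members, the fifth being *Tnfrsf12a*, which was lower. DESeq2 likewise called the 4 members higher and 0 lower. The median log2 fold change, old over young, was -0.03 over the 24 members and 0.00 over all tested genes, and 11 members had a positive and 13 a negative value.

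**Figure D1:**
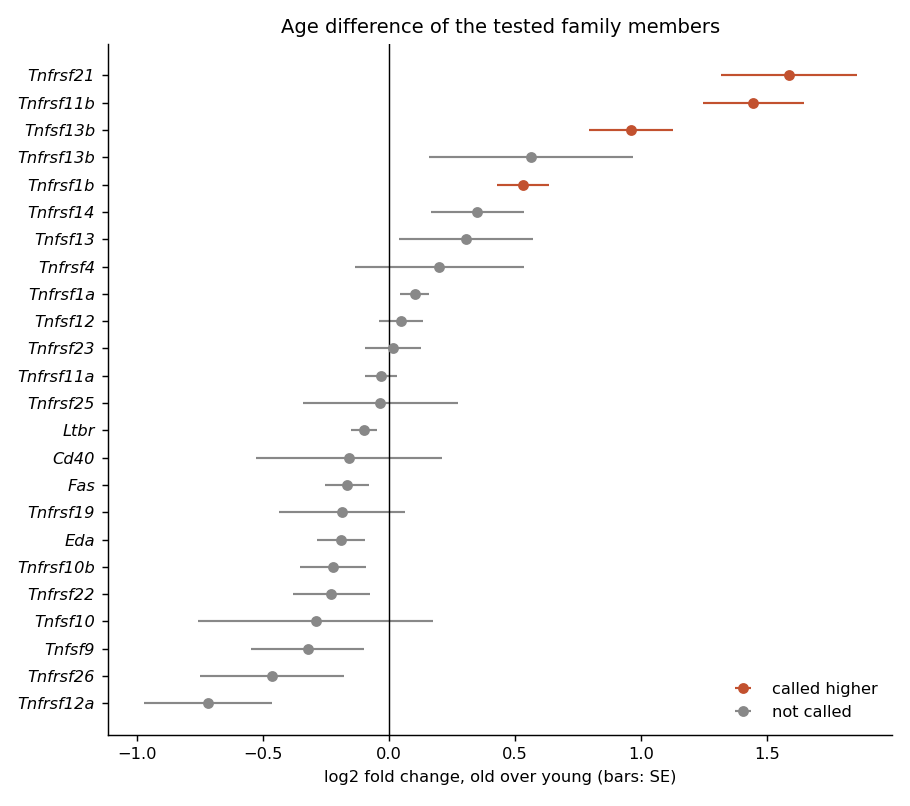
Log2 fold change, old over young, of the 24 tested family members in edgeR, ordered by size, with bars of 1 standard error (SE). The 4 members called higher lie between 0.53 and 1.58, and the 20 members that were not called lie between -0.72 and 0.56.

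*Tnfrsf11b* encodes osteoprotegerin, a secreted decoy receptor that binds RANKL and TRAIL. In counts divided by the size factor of the library (normalized counts), young replicates 1 to 5 had 589, 559, 1013, 580.4 and 582. Old replicates 1 to 5 had 1733, 1313, 2414, 1732 and 1802. All old aortae lay above all young aortae, although young replicate 3 stood well above the rest of its group. The log2 fold change was 1.44 (SE 0.20, edgeR adjusted p = 0.0014), a 2.72-fold higher level. On the per-length scale TPM, in which a library's transcripts sum to a fixed total, it rose from 37.7 ± 10.7 (SD, n = 5) to 101 ± 24.1 (SD, n = 5).

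*Tnfrsf21* encodes death receptor 6, a receptor with a death domain known from neurons and lymphocytes. Its normalized counts were 76.7, 132, 85.7, 155 and 175 in young replicates 1 to 5. They were 318, 581, 396, 289 and 282 in old replicates 1 to 5. The groups did not overlap, and old replicate 2 was the highest. This member had the largest log2 fold change of the 24, at 1.58 (SE 0.27, edgeR adjusted p = 0.00407), which is a 3.00-fold higher level. In TPM it went from 4.87 ± 1.68 to 14.2 ± 4.04 (SD, n = 5 each).

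*Tnfrsf1b* encodes the second TNF receptor, which lacks a death domain and is found mainly on leukocytes and endothelium. Young replicates 1 to 5 had 519, 448, 457, 457 and 359 normalized counts. Old replicates 1 to 5 had 614, 682, 754, 606 and 560.0. The lowest old aorta was above the highest young one by a small margin. The log2 fold change was 0.53 (SE 0.10, edgeR adjusted p = 0.00535), or 1.44-fold.

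*Tnfsf13b* encodes BAFF, the survival factor of B cells that is made largely by myeloid and stromal cells. Its normalized counts were 277, 233, 188, 198 and 234 in young replicates 1 to 5. They were 331, 619, 472, 388 and 376 in old replicates 1 to 5. No old aorta was within the young range, and old replicate 2 was again the highest. The log2 fold change was 0.96 (SE 0.17, edgeR adjusted p = 0.00329), or 1.94-fold.

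**Figure D2:**
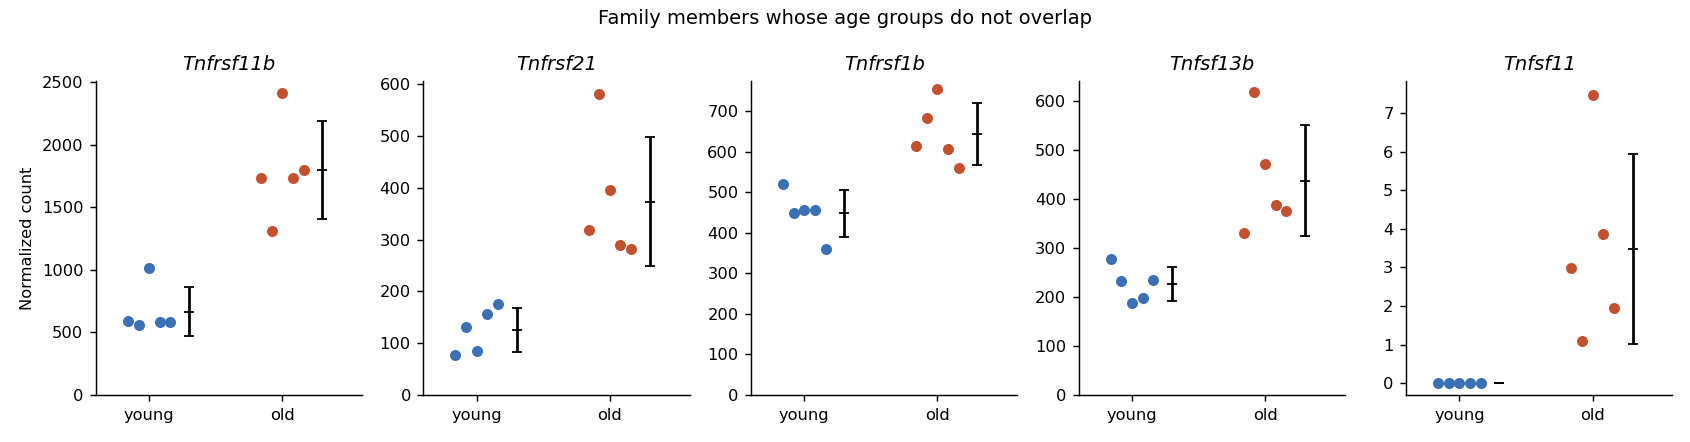
Normalized count (y axis) of each library for the 5 family members whose age groups do not overlap, with points for mice and black bars for mean ± SD over 5 mice. In all 5 panels every old aorta lies above every young aorta, and *Tnfsf11* has 0 counts in each young aorta.

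Each of the 4 called members was called higher, too, in all 20 alternatives of processing, including the omission of any 1 mouse. The 4 genes lie apart on GRCm38, on chromosome 15 (*Tnfrsf11b*, 54250619 to 54278484), chromosome 17 (*Tnfrsf21*, 43016555 to 43089189), chromosome 4 (*Tnfrsf1b*, 145213463 to 145246870) and chromosome 8 (*Tnfsf13b*, 10006467 to 10039072). All are annotated as protein coding, and at most 0.346% of their 50-base windows occur in transcripts of other genes. The groups did not overlap for 4 of the 24 tested members, these same 4, whereas 9.92% of all tested genes showed no overlap.

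Summed counts of macrophage and dendritic cell markers, like these members, were higher in old aortae. The summed normalized count of the 8 macrophage markers was 5788 to 7597 in young and 7844 to 14353 in old aortae, with old replicate 3 at the top, which was also the highest library of *Tnfrsf11b* and *Tnfrsf1b*. *Tnfsf13b* and *Tnfrsf21* were highest in old replicate 2, which had the highest summed count of the 5 neutrophil markers, at 113 against 6.04 to 41.0 in the other libraries. Of that sum, *S100a8* held 42.5 and *S100a9* 53.4, and none of the neutrophil markers passed the low-count filter. Old replicate 2 also had the highest mitochondrial share of all libraries, at 11.0%. Within the old group it had the highest endothelial, adipocyte and lymph node stroma sums. The 6 dendritic cell markers summed to 25.2 to 83.8 in young and 114 to 196 in old aortae, again without overlap and highest in old replicate 3. Of these markers, 2 could be tested and 1 was called higher, namely *Cd209a*. It had 12.1 to 35.9 normalized counts in young and 74.0 to 112 in old aortae. The groups overlapped for *Itgax*, *Flt3*, *Clec9a* and *Ccr7*. The part of macrophages, dendritic cells, neutrophils or the other traits of old replicate 2 in the difference of any member was not tested. Without old replicate 2, the log2 fold change was 1.37 for *Tnfrsf21* and 0.80 for *Tnfsf13b*, and both were called.

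The 250 bases before the RefSeq transcription starts (build GRCm38.p6) are given for 3 called members and for *Tnfsf11*, the genes with an entry among those whose age groups did not overlap. Capitals mark matches on either strand to the κB motif, the interferon-stimulated response element (ISRE), the AP-1 motif TGANTCA, the GC box GGGCGG and the TATA motif TATAAA. Each sequence is written 5′ to 3′ on the strand of its gene, from chr17:43016305-43016554 (plus), chr4:145246871-145247120 (minus), chr8:10006217-10006466 (plus) and chr14:78308044-78308293 (minus).
Tnfrsf21: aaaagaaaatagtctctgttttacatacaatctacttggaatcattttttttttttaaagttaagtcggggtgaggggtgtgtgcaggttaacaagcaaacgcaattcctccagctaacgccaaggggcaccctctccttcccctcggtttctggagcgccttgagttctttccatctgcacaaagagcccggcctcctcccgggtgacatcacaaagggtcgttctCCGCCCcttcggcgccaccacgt
Tnfrsf1b: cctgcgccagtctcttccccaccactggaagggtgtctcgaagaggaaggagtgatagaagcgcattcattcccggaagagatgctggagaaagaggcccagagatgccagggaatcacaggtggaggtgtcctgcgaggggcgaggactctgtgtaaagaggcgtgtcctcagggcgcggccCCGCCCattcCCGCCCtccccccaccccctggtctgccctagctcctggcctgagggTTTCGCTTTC
Tnfsf13b: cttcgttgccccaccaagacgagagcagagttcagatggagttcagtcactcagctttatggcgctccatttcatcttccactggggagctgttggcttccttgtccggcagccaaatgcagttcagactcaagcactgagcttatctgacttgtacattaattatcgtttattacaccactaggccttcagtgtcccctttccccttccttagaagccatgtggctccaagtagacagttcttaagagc
Tnfsf11: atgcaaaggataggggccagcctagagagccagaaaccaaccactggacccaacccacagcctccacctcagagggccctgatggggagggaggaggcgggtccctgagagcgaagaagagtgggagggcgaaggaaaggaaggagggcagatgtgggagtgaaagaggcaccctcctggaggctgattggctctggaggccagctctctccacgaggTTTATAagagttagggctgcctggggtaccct

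In these windows *Tnfrsf21* held 1 GC box and *Tnfrsf1b* held 2 GC boxes and an ISRE match at bases 10 to 1 before its start. *Tnfsf13b* held no match before its first start, and before its second start, whose window is not printed, an AP-1 match and an ISRE match at bases 16 to 7. *Tnfsf11* held a TATA match at bases 32 to 27. No κB match lay in any of these windows. Over the 37 windows of the 33 members with an entry, matches were found in 8.11% for κB, 10.8% for the ISRE, 16.2% for AP-1, 43.2% for the GC box and 16.2% for the TATA motif. Over all 32851 windows the shares were 3.90%, 2.98%, 6.75%, 32.7% and 12.4%. A match of letters does not show that a factor bound there.

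The partners of *Tnfrsf11b* were measured in the same libraries. *Tnfsf11* (chromosome 14, 78277445 to 78308043) encodes RANKL, the ligand that drives osteoclast formation. It had 0 counts in all 5 young libraries and 3, 1, 8, 4 and 2 counts in old replicates 1 to 5, which make 18 counts in all. Against an assumed floor of 3 counts over the 5 young libraries, its depth-scaled level was 6.06-fold higher in old aortae. This ratio makes no allowance for the sampling error of the 18 counts and is not a lower limit. The 5 old aortae lay above the 5 young aortae in normalized counts. An exact two-sided permutation test gave p = 0.0079, which is the lowest value possible with 5 mice per group. Groups that do not overlap always give this value, so that it adds nothing to the lack of overlap. It was not adjusted for the other members. Of the genes with a count that were not tested, 1.03% had groups that did not overlap, in either direction. Some of those genes had fewer than 5 counts in all, so that their groups could not lie apart. The share is therefore not like for like with a gene of 18 counts. *Tnfsf11* had too few counts for the low-count filter, and without it edgeR gave an adjusted p of 0.0125, in a fit that called 5.72% of 28011 genes. With each mouse left out in turn that adjusted p ranged from 0.00822 to 0.0445, the highest without old replicate 3, which held 8 of the 18 counts. With the replicate number as a block the call was lost (edgeR without the filter, adjusted p = 0.056). DESeq2 without the filter gave an unadjusted p of 0.00118 and no adjusted p for this gene.

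*Tnfrsf11a*, which encodes RANK, the signalling receptor of RANKL, had 1045, 1069, 1054, 971 and 1079 normalized counts in young and 1124, 950.2, 1075, 979.5 and 941 in old aortae. The groups overlapped, at a log2 fold change of -0.03 (SE 0.06, edgeR adjusted p = 0.79). Per length, the level of the decoy *Tnfrsf11b* was 1.35 ± 0.389 times that of *Tnfrsf11a* in young and 3.76 ± 0.713 times in old aortae (SD, n = 5). This ratio was 1.11 to 2.04 in young and 2.94 to 4.77 in old aortae. The ranges were apart, as they already were for the counts of *Tnfrsf11b* alone. Of 9 osteoclast genes, 5 could be tested, 1 was called higher (*Mmp9*, a gelatinase) and 1 lower (*Itgb3*, the integrin β3 subunit, log2 fold change -0.42, SE 0.09, edgeR adjusted p = 0.00898), beside 6.48% and 4.99% of all tested genes. The groups overlapped for *Mmp9*, which was called in 10 of 19 alternatives (highest adjusted p = 0.106). *Calcr*, the calcitonin receptor of osteoclasts, had no count in any library.

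*Tnfsf10* encodes TRAIL, the other ligand of osteoprotegerin and an inducer of apoptosis. Its normalized counts were 237, 116, 422, 109 and 130.1 in young replicates 1 to 5 and 137, 321, 147, 139 and 83.6 in old replicates 1 to 5. The groups overlapped widely, and young replicate 3 and old replicate 2 were far above most others (log2 fold change -0.29, SE 0.47, edgeR adjusted p = 0.749). The 2 libraries with the most endothelial transcripts within their age group were the same, with a summed count of 6 endothelial markers of 33413 in young replicate 3 and 22319 in old replicate 2. The other young aortae had 19345 to 27341 and the other old aortae 9725 to 15985 of these. Whether endothelial content set the level of *Tnfsf10* was not tested. *Tnfrsf10b*, the TRAIL receptor with a death domain, had a log2 fold change of -0.22 (SE 0.13, edgeR adjusted p = 0.302). The decoys *Tnfrsf22* and *Tnfrsf23* had log2 fold changes of -0.23 and 0.02 and were not called. They share 27.4% and 19.3% of their windows with other genes, mainly with each other, so that their counts are uncertain.

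**Figure D3:**
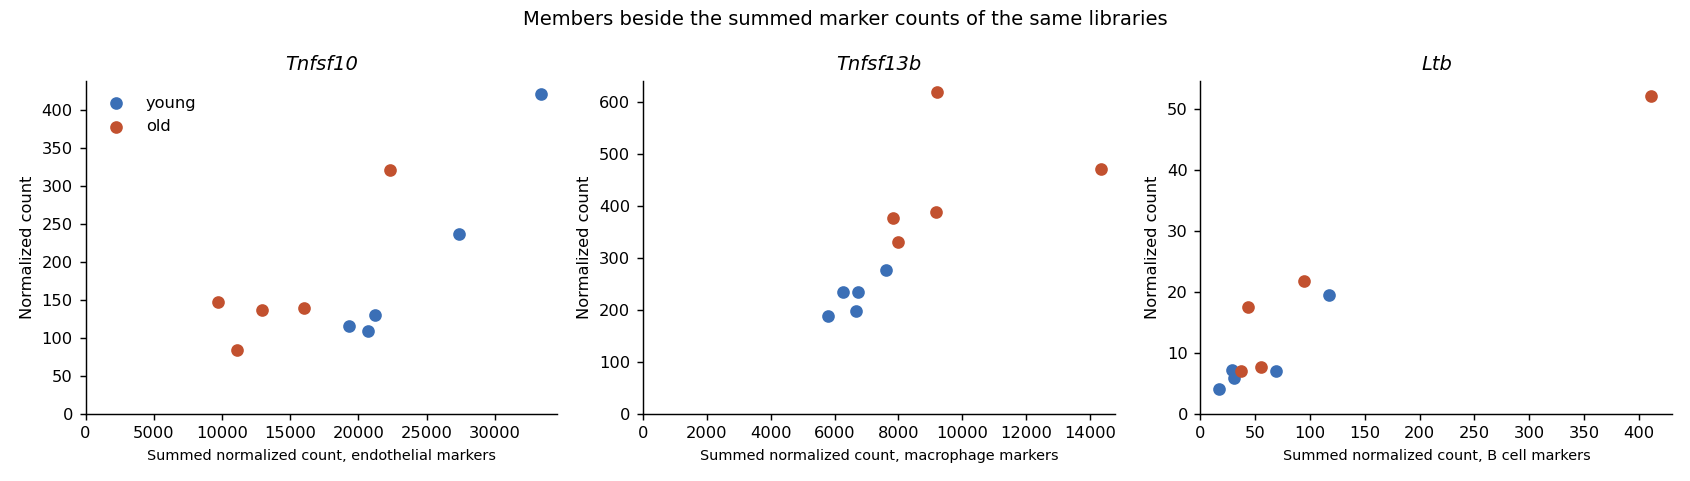
Normalized counts of *Tnfsf10*, *Tnfsf13b* and *Ltb* (y axes) against the summed normalized count of endothelial, macrophage and B cell markers in the same library (x axes), with 1 point per mouse. *Tnfsf10* is highest at 422 in the young library with 33413 endothelial counts, and *Ltb* is highest at 52.2 in the old library with 411 B cell counts.

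BAFF has 3 receptors, all of them low in the aorta. *Tnfrsf13b* (TACI) had 29.6, 26.2, 16.9, 5.79 and 22.5 normalized counts in young replicates 1 to 5 and 11.0, 27.2, 46.6, 36.6 and 26.3 in old replicates 1 to 5. The groups overlapped (log2 fold change 0.56, SE 0.41, edgeR adjusted p = 0.413), and the value was 0.32 without young replicate 4 and 0.33 without old replicate 3. *Tnfrsf13c* (the BAFF receptor) had 11.2, 0, 0.997, 0 and 1.02 in young and 0, 3.27, 17.7, 2.89 and 0 in old aortae. *Tnfrsf17* (BCMA, a receptor of plasma cells) had 9.20, 3.02, 3.99, 2.90 and 1.02 in young and 3.00, 12.0, 22.4, 6.75 and 5.83 in old aortae. Both were highest in young replicate 1 within the young group and in old replicate 3 within the old group, and neither was tested. Of the 4 plasma cell markers, *Sdc1*, a syndecan that other cells also make, was called lower (log2 fold change -0.42) and *Ighm* was not called (1.13). *Jchain*, the joining chain of secreted antibodies, was not tested and went from 14 counts in young to 194 in old libraries, without overlap (edgeR without the filter, adjusted p = 0.00618). *Mzb1* had 6 and 2 counts.

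The same libraries were highest for *Ltb*, the lymphotoxin β chain of lymphocytes, which was named after its values were seen. *Ltb* had 19.4, 4.03, 6.98, 5.79 and 7.17 normalized counts in young and 7.00, 21.8, 52.2, 7.71 and 17.5 in old aortae. The summed count of 6 B cell markers was 118 in young replicate 1 and 411 in old replicate 3. It was 17.1 to 68.8 in the other young and 37.0 to 94.8 in the other old aortae. The 8 T cell markers, too, were highest in these libraries within their group, at 72.6 and 212. Of the 19 members with a count that were not tested, 12 had their highest value in old replicate 3. How many of all genes that were not tested were highest in this library was not computed. The part of lymphocytes in the values of *Ltb* and the other members was not tested.

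The ligands of *Tnfrsf1b* were close to the limit of detection. *Tnf* had 3.07, 3.02, 2.99, 1.93 and 0 normalized counts in young and 2.00, 3.27, 5.59, 0.964 and 0.972 in old aortae, with 11 and 13 counts in all. *Lta*, lymphotoxin α, had 2.04, 1.01, 0, 2.90 and 0 in young and 0, 1.09, 2.80, 0 and 0 in old aortae, with 6 and 4 counts in all. The groups overlapped for both, and edgeR without the low-count filter called neither (adjusted p = 0.915 for *Tnf* and 0.819 for *Lta*). The other TNF receptor, *Tnfrsf1a*, carries a death domain and is made by most cells. Its normalized counts were 2414, 2169, 2246, 2176 and 2399.6 in young and 2236, 2438, 2611, 2466 and 2415 in old aortae. The groups overlapped (log2 fold change 0.10, SE 0.06, edgeR adjusted p = 0.28). Per length, *Tnfrsf1b* was at 0.134 ± 0.0182 of the level of *Tnfrsf1a* in young and at 0.179 ± 0.0164 in old aortae (SD, n = 5).

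Receptors were far more abundant than ligands on the per-length scale. The 5 highest members were *Tnfrsf12a*, *Tnfrsf1a*, *Fas*, *Ltbr* and the ligand *Tnfsf12*, with mean TPM over all 10 libraries of 299.9, 145, 107, 93.7 and 81.9. Of the 18 ligands, 11 were below 1 TPM and 1 was at 10 TPM or more. Of the 6 receptors with a death domain, 3 were at 10 TPM or more and 1 was below 1 TPM (*Edar*). Of the 16 other signalling receptors, 4 were at 10 TPM or more and 5 were below 1 TPM.

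**Figure D4:**
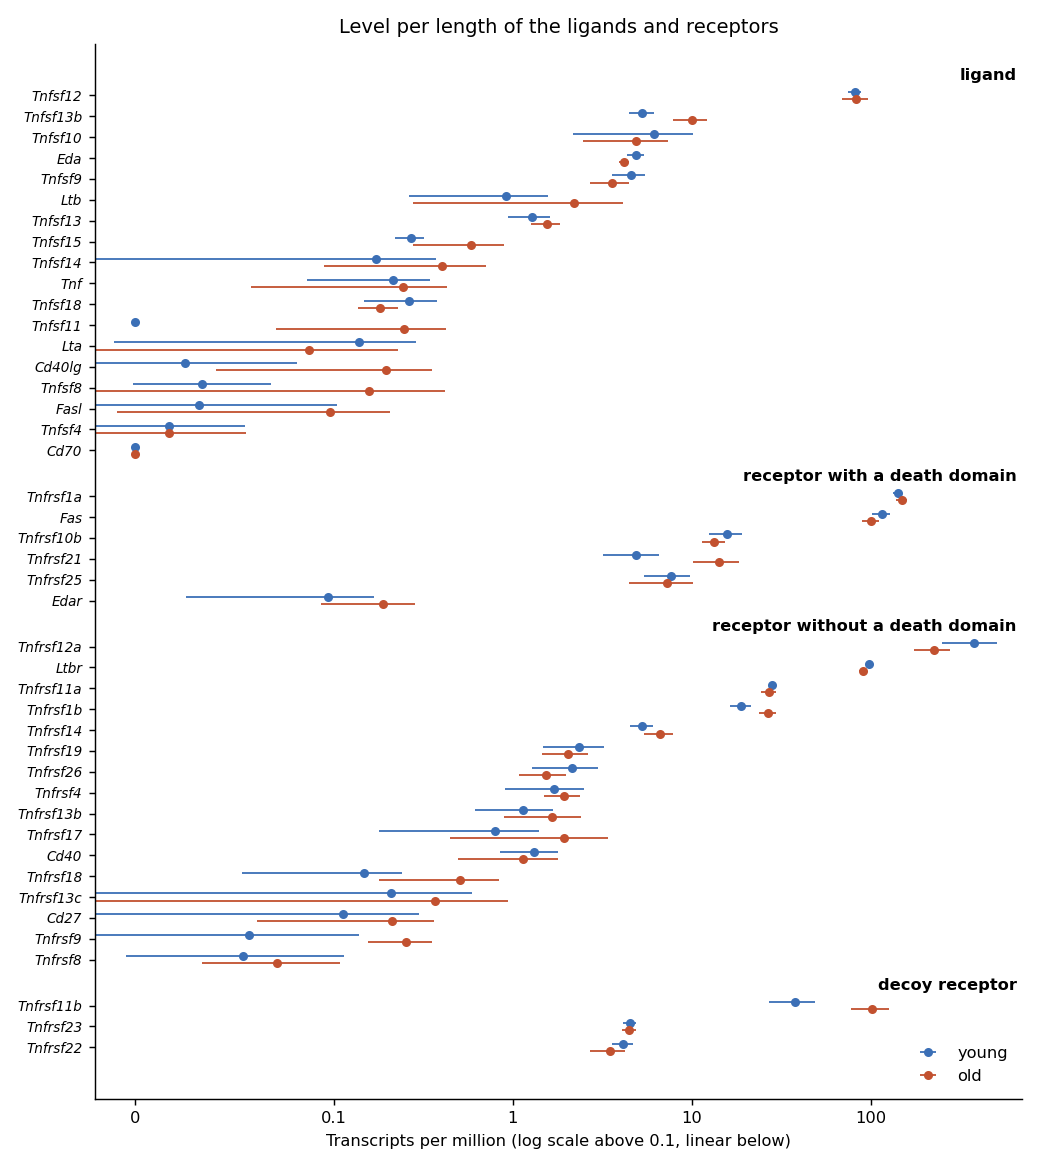
Level per length (TPM, x axis, logarithmic above 0.1 and linear below) of the 43 coding members by role, with points for the mean of 5 young and 5 old aortae and bars for the SD, some of which run past the left edge. Receptors reach 299.9 TPM (*Tnfrsf12a*, mean of both ages), whereas most ligands lie below 1 TPM.

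*Tnfrsf12a* encodes Fn14, the receptor of the cytokine TWEAK, which is induced by growth factors and injury. Young replicates 1 to 5 had 2304, 5300.0, 4089, 6437 and 4489 normalized counts. Old replicates 1 to 5 had 3401, 1822, 2726, 2844 and 2877. Apart from young replicate 1, the young group lay wholly above the old one. The log2 fold change of *Tnfrsf12a* was -0.72 (SE 0.25) and missed the threshold (edgeR adjusted p = 0.102). Without young replicate 1 it was -0.89 and passed (edgeR adjusted p = 0.0108). With all 10 libraries, limma-voom with sample quality weights also called it lower (adjusted p = 0.0338). The other 18 alternatives did not call *Tnfrsf12a*. In these its log2 fold change was -0.81 to -0.56, and the adjusted p of edgeR, DESeq2 or limma-voom was 0.0525 to 0.276. Young replicate 1 had the most adipocyte transcripts (summed count of 5 markers 8043, other young aortae 2109 to 4139) and Schwann cell transcripts (4 markers, 1139 against 384 to 554). Their part in the level of *Tnfrsf12a* was not tested. *Tnfsf12*, which encodes TWEAK, had 856, 761, 703, 757 and 763 in young and 701, 661, 918, 823 and 841 in old aortae (log2 fold change 0.05, SE 0.09, edgeR adjusted p = 0.784). Its counts are uncertain, since 46.8% of its windows occur in the read-through gene *Tnfsfm13*.

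*Fas*, the death receptor of Fas ligand, had 1240.0, 1630.2, 1693, 1430.2 and 1376 normalized counts in young and 1364, 1154, 1315, 1264 and 1429 in old aortae. Its log2 fold change was -0.17 (SE 0.09, edgeR adjusted p = 0.241). *Fasl* had 2 counts in young and 6 in old libraries. *Ltbr*, the lymphotoxin β receptor, had 1516, 1465, 1372, 1416 and 1417 in young and 1361, 1347, 1405, 1293 and 1264 in old aortae. The groups overlapped in both receptors, and *Ltbr* was not called (log2 fold change -0.10, SE 0.05, edgeR adjusted p = 0.242).

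The 20 tested members that were not called had adjusted p-values from 0.102 to 0.96. Among them were *Eda*, a ligand of skin appendages, at -0.19 on the log2 scale (SE 0.10, edgeR adjusted p = 0.224), and *Tnfrsf14*, the herpesvirus entry mediator, with 0.35 (SE 0.18, edgeR adjusted p = 0.245). *Tnfrsf19*, *Tnfrsf25*, *Tnfrsf26*, *Tnfrsf4*, *Cd40*, *Tnfsf9* and *Tnfsf13* completed the list, with log2 fold changes from -0.46 to 0.31. *Tnfsf13* shares 57.3% of its windows with other genes and *Tnfsf9* 11.5%.

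Of the 20 members that were not tested, *Cd70* had no count, and the others had 2 to 152 counts over all 10 libraries. Their highest value in any library was 52.2 normalized counts, and 5 of them had a count in every library. They were ligands (*Cd40lg*, *Cd70*, *Fasl*, *Lta*, *Ltb*, *Tnf*, *Tnfsf4*, *Tnfsf8*, *Tnfsf11*, *Tnfsf14*, *Tnfsf15* and *Tnfsf18*), receptors (*Cd27*, *Edar*, *Tnfrsf8*, *Tnfrsf9*, *Tnfrsf13c*, *Tnfrsf17* and *Tnfrsf18*) and *Tnfsf13os*. The mean was higher in old aortae for 16 and lower for 3 of them. The like share over all genes that were not tested was not computed, so these counts show nothing particular to the family. Without the low-count filter, edgeR called 1 of the 20 members, *Tnfsf11*. The following were named after their values were seen. *Tnfsf15*, the ligand TL1A of endothelial and myeloid cells, had 4.83 to 7.16 normalized counts in young and 9.72 to 16.8 in 4 old aortae, but 2.18 in old replicate 2. In edgeR without the filter it was not called over all mice (adjusted p = 0.165) and was called higher without old replicate 2 (adjusted p = 0.0378). *Tnfrsf9*, the costimulatory receptor 4-1BB, had 0 to 2.99 in young and 2.80 to 6.81 in old aortae (edgeR without the filter, adjusted p = 0.163).

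Receptors of the family that the symbol rule leaves out are *Eda2r*, *Ngfr* and *Relt*. *Eda2r*, a receptor of ectodysplasin A2, had 93.0, 87.5, 111, 122 and 159 normalized counts in young and 179, 187, 157, 163 and 169 in old aortae. It was called higher (log2 fold change 0.59, SE 0.15, edgeR adjusted p = 0.0231), and only young replicate 5 reached into the old range. *Ngfr*, the low-affinity neurotrophin receptor (0.14, SE 0.41), and *Relt* (-0.30, SE 0.30) had log2 fold changes that were not called.

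Of 84 genes that act downstream of the receptors or process ligands, 76 could be tested, and 5 were called higher and 2 lower in old aortae. These are 6.58% and 2.63% of the tested genes, close to or below the 6.48% and 4.99% of all tested genes. Their median log2 fold change was 0.07. Of 31 tested adaptors, kinases and ubiquitin enzymes, 1 was called, the deubiquitinase *Cyld*, a brake on NF-κB, at 0.21 (SE 0.05, edgeR adjusted p = 0.0192). Of 12 genes of the death pathway, 1 was called, *Bid*, a link to mitochondrial apoptosis, at 0.79 (SE 0.14, edgeR adjusted p = 0.00296). All old aortae lay above all young aortae in both genes.

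Of 10 subunits and inhibitors of NF-κB, 1 was called, *Rel*, which fell from 247 ± 42.2 to 185 ± 17.7 normalized counts (SD, n = 5; log2 fold change -0.41, SE 0.12, edgeR adjusted p = 0.047). Of 21 NF-κB target genes, 14 could be tested, and the median log2 fold change of the 14 was 0.35. Of the 14, 3 were called, all higher, which is 21.4% beside 6.48% of all tested genes. The list was chosen with earlier results of these data known, and the authors had reported *Mmp3* and *Mmp9* as elevated in these aortae. This share therefore does not test the target genes as a group. The 3 called were the matrix protease *Mmp3* (1.10, SE 0.13, edgeR adjusted p = 0.000251), the chemokine *Ccl2* (2.02, SE 0.48, edgeR adjusted p = 0.0195) and *Mmp9* (0.73, SE 0.22, edgeR adjusted p = 0.0465). Over the 19 alternatives that keep this threshold, *Rel* was called in 8, *Mmp9* in 10, *Cyld* in 15 and *Ccl2* in 17. Of 9 genes of shedding and processing, 1 was called and 8 had a negative log2 fold change. *Adam17*, the sheddase of TNF and its receptors, had 1235, 1197, 1191, 1254 and 1146 normalized counts in young and 1014, 851, 829, 957 and 846 in old aortae. It fell by 0.41 on the log2 scale (SE 0.07, edgeR adjusted p = 0.00151), and the groups did not overlap.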

How the data were processed

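RNA of 10 aortae, 5 per age and 1 per mouse, was sequenced from stranded poly(A) libraries. The authors deposited raw counts per gene symbol; the submitters' processing notes name fastp 0.20.0 for trimming, alignment to GRCm38 with STAR 2.7.0f, and featureCounts of Subread 1.6.4. Reads under 35 bases were removed. The strand setting and the treatment of multi-mapping reads in counting are not given in the sources used here, so that overlapping genes are uncertain.

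Groups came from the ages in the labels. Genes were filtered with filterByExpr and tested with edgeR 4.0.16 (TMM factors, quasi-likelihood test, Benjamini-Hochberg adjustment over 14614 genes) in R 4.3.3. DESeq2 1.42.0 size factors gave normalized counts, and DESeq2 and limma 3.58.1 were alternatives, as were other scalings and filters, a replicate block, an adjusted p below 0.01 and the omission of each mouse. TPM was computed from the exon lengths of GENCODE M21, in which 54471 symbols had a single gene and 982 did not. The script was tested on simulated data. Replicates differed by more than sampling noise (chi-square over degrees of freedom 8.06 to 58.8). Depth was 19640401 to 22886153 counts per library, which limits the precision mainly for the ligands.

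Per-library values were given for called members, members without overlap, their ligands or receptors, and the 5 highest members per length. The members and lists were chosen with earlier results of these data known. Several of the remaining marker lists are described above by their summed counts. The remaining lists gave 0 calls among 3 tested B cell, 5 adipocyte, 4 Schwann cell and 2 lymph node stroma markers. They gave 1 call among 2 dendritic cell (*Cd209a*, higher) and 6 smooth muscle (*Smtn*, higher) markers and 3 among 6 fibroblast markers (*Lum* higher, *Col1a1* and *Pi16* lower). No natural killer cell or neutrophil marker could be tested.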

Additional observations from a re-analysis of the deposited data

Results flagged for a closer look

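In 6 of 48 groups of 5 libraries, over the 24 tested members, 1 library stood apart from the other 4 by Dixon's test, which flags about 1 group in 20 when nothing is unusual. Young replicate 3 was high in *Tnfrsf11b* (1013 normalized counts, others 559 to 589), *Tnfrsf19* (116, others 52.3 to 63.7) and *Tnfrsf26* (73.8, others 32.2 to 42.9). Old replicate 2 was high in *Tnfsf10* (321, others 83.6 to 147), old replicate 3 in *Tnfsf9* (41.0, others 25.1 to 29.0) and old replicate 4 in *Tnfrsf22* (123, others 82.9 to 86.5). *Tnfrsf22* and *Tnfsf9* share windows with other genes.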

How the results depend on the processing

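The number of members called was 4, and it was 4 or 5 in all 20 alternatives. The fifth was *Tnfsf11* without the low-count filter, *Tnfsf15* without old replicate 2, and *Tnfrsf12a*, lower, without young replicate 1 and in limma-voom with sample quality weights (adjusted p = 0.0338). Of the pathway genes 7 were called, but 3 at an adjusted p below 0.01, 12 in limma-voom with sample quality weights, 4 without the low-count filter and 4 to 10 with each mouse left out in turn, with the lowest number when young replicate 2 or young replicate 4 was omitted. The cause was not tested. Leaving out single mice, *Tnfsf10* ranged on the log2 scale from -0.68 (without old replicate 2) to 0.17 (without young replicate 3), and *Tnfsf12* from -0.015 (without old replicate 3) to 0.10 (without old replicate 2). Same-numbered young and old libraries had correlations of -0.30 to 0.13, so that the numbers were not taken as pairs. With the replicate block 4 members and 7 pathway genes were called, and of the calls on members only that of *Tnfsf11* without the low-count filter was lost (alternatives for this gene and *Tnfsf15* in that fit were added after seeing the data). Ranked by CPM, 4 of the 5 highest members per length were the same. Depth limits the 20 members that were not tested.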
